A study of Mus musculus with 19 samples.

Results

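The proteasome is the protease complex that degrades ubiquitin-tagged proteins, and its genes were followed in mouse hindlimb muscle lacking desmin, the muscle intermediate filament. The set comprised 41 of the 12393 genes with a probe set annotated to a single symbol: every gene whose symbol is Psma, Psmb, Psmc, Psmd or Psme followed by a number, read from its probe set with the highest mean over 19 arrays. It held 7 alpha-ring subunits of the core particle and the testis subunit Psma8, 7 standard beta-ring subunits, 3 immunoproteasome subunits, 6 ATPases, 11 non-ATPase subunits and 3 assembly chaperones of the regulatory cap, and 3 activators. Of the 41, 39 passed the filter on dim genes and were tested among 7436 genes; Psma8, at 1.36 to 28.2 in intensity over the 19 arrays, and Psmb9 did not pass it. Psme2 shares its probe set with another symbol and was not counted.

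Each array measured total RNA from the tibialis anterior, a fast ankle flexor, of a 129/SVE mouse, and all muscles, wild-type ones included, had been put through 50 eccentric contractions 12 hours before RNA isolation. The groups were desmin knockout (Des-/-) at 12 to 14 months (KO_Aged, 4 arrays), wild type at the same age (WT_Aged, 5), knockout at 7 to 9 weeks (KO_Adult, 5) and wild type at that age (WT_Adult, 5). No unexercised muscle was among the samples, so each difference below is between exercised muscles; whether each array of a group is a different animal is not stated in the labels, and in some groups arrays share the stem of their title code, and p-values then measure only the spread between these samples. In whole muscle, fewer cells of a type and less RNA per cell cannot be told apart. Des itself had intensities of 636, 72.7, 295 and 397 in KO_Aged, against 10749, 12736, 11010.0, 10981 and 11316 in WT_Aged, and of 879, 311, 508, 515 and 391 in KO_Adult, against 13699.6, 14092, 22313, 19606 and 22242 in WT_Adult, so all 9 knockout arrays lay below all 10 wild-type arrays.

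The 26S proteasome is a barrel of alpha and beta rings, the 20S core, capped by the 19S regulatory particle. The cap binds ubiquitin chains, removes them with the deubiquitinase Psmd14, unfolds the substrate with a ring of ATPases and feeds it into the core, where Psmb5, Psmb6 and Psmb7 cut it. Under interferon these catalytic subunits are replaced by Psmb8, Psmb9 and Psmb10, and in muscle the complex removes damaged and disused contractile proteins.

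Both a control signal and an RNA quality measure ran alongside the groups. The bacterial dap poly-A control, which is added to RNA before labelling, read 1003 to 2421 on 8 arrays (all 5 of WT_Aged plus KO_Adult replicates 3, 4 and 5), while it gave 2.37 to 29.7 on the 11 remaining arrays (all of KO_Aged and WT_Adult, and KO_Adult replicates 1 and 2). KO_Aged and WT_Aged therefore lie wholly on opposite sides of this split, as do WT_Aged and WT_Adult, and only through the 5 KO_Adult arrays can it be fitted as a term. KO_Aged replicates 2 and 3 had a Gapdh 3′ to 5′ control ratio of 8.61 and 5.01, against 0.766 to 0.968 on the other 17 arrays. Summed over 10 muscle fibre markers, intensity was 255823 to 294094 in KO_Aged and 204955 to 264657 in WT_Aged, and 230065 to 282360.0 in KO_Adult and 215740.0 to 397474 in WT_Adult.

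In aged muscle, 10 of the 39 tested proteasome genes were higher and 2 lower in KO_Aged than in WT_Aged. The risers were spread over the complex: the catalytic beta subunit Psmb7, the non-catalytic beta subunit Psmb4, the alpha subunit Psma1, the ATPases Psmc3 and Psmc5, the cap subunits Psmd2, Psmd4 and Psmd6, and the assembly chaperones Psmd5 and Psmd10. The beta subunit Psmb2 and the cap scaffold Psmd1 fell. By limma with Benjamini-Hochberg adjustment over all tested genes, a gene was called at an adjusted p under 0.05. Among all 7436 genes 16.9% were called higher and 12.5% lower, against 25.6% and 5.13% of the proteasome genes. All of KO_Aged lacked poly-A signal and all of WT_Aged had it, so genotype and control signal cannot be told apart in this comparison. The median log2 difference was 0.24 over the 39 genes and 0.07 over all genes tested, and 28 of the 39 were positive. With arrays centred on their median in place of quantile normalization, 4 proteasome genes were called higher and none lower, against 13.0% and 11.7% of all genes, the medians being 0.18 and 0.05.

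Psmd5 had intensities of 834, 1237, 1078 and 864 in KO_Aged and 370.1, 377, 361, 341 and 319.8 in WT_Aged, and of 993, 948, 482, 373 and 507 in KO_Adult and 669.8, 617, 556, 555 and 416 in WT_Adult. Psmd5, a chaperone that holds the ATPase ring during assembly of the cap, had its 4 KO_Aged arrays above every WT_Aged and every WT_Adult array, and its log2 difference in aged muscle was 1.40 ± 0.26 (SE, adjusted p = 0.000705). The other chaperone that rose, Psmd10 (gankyrin), differed by 0.64 ± 0.18 (SE, adjusted p = 0.0128), with 308 to 359 in KO_Aged, against 172 to 236 in WT_Aged. Psmd9, the remaining one, differed by 0.31 ± 0.20 (SE, adjusted p = 0.243).

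Of the 6 ATPases, which form the unfolding ring, 2 rose. Psmc3 had intensities of 4929, 7494, 6468 and 5295 in KO_Aged and 3651, 3969.9, 3791, 3802 and 4192 in WT_Aged, and of 6815, 7842, 5302, 4851 and 5599.9 in KO_Adult and 5637, 5677, 4803, 3845 and 3629 in WT_Adult. Every KO_Aged array lay above every WT_Aged array, and the log2 difference was 0.70 ± 0.15 (SE, adjusted p = 0.00219). Psmc5 differed by 0.65 ± 0.14 (SE, adjusted p = 0.00212), with 3749 to 4555 in KO_Aged and 2497 to 3074 in WT_Aged. Psmc1, Psmc2, Psmc4 and Psmc6 had differences between -0.23 and 0.22 and did not pass the test.

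Of the 11 non-ATPase subunits, 3 rose and 1 fell. Psmd2, the cap scaffold that docks ubiquitin shuttles, had a log2 difference of 0.53 ± 0.12 (SE, adjusted p = 0.00344). Psmd4, a ubiquitin receptor, differed by 0.51 ± 0.14 (SE, adjusted p = 0.0128), and Psmd6, a lid subunit, by 0.44 ± 0.11 (SE, adjusted p = 0.00529). Psmd1 had intensities of 3697, 2991, 3959.9 and 3089.9 in KO_Aged and 4054, 4672, 4415, 4270.2 and 4729.7 in WT_Aged, and of 4038, 3632, 4187, 4181 and 3881 in KO_Adult and 4401, 3782, 3588, 3457 and 3715 in WT_Adult. Psmd1, the other large scaffold of the cap, had a log2 difference of -0.35 ± 0.12 (SE, adjusted p = 0.0411); its KO_Aged and WT_Aged arrays did not overlap, and the call was lost without KO_Aged replicate 2 or 4 or WT_Aged replicate 1, 2, 3, 4 or 5 (adjusted p from 0.054 to 0.148). The other 7 lay between -0.11 and 0.39.

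In the core, Psma1 alone among the 7 alpha subunits was called, at 0.43 ± 0.14 (SE, adjusted p = 0.0312), and that call was lost without KO_Aged replicate 3 or 4 or WT_Aged replicate 2 or 5 (adjusted p from 0.0574 to 0.11); the other 6 lay between -0.15 and 0.33. Among the beta subunits, Psmb4 differed by 0.62 ± 0.17 (SE, adjusted p = 0.0114). Its other probe set, at a mean intensity of 3827, gave -0.18. Psmb2 had intensities of 2061, 2095, 1893 and 1319.8 in KO_Aged and 2575, 2139, 2566, 2454 and 2179 in WT_Aged, and of 2256, 2572, 2310.0, 2359.9 and 2443 in KO_Adult and 2545, 2359.9, 2452, 1878 and 1860.5 in WT_Adult. Psmb2, a non-catalytic beta subunit, had a log2 difference of -0.43 ± 0.15 (SE, adjusted p = 0.0354), with KO_Aged replicate 4 the lowest of all 19 arrays, and the call was lost without KO_Aged replicate 3 or 4 or WT_Aged replicate 1, 3 or 4 (adjusted p from 0.0628 to 0.145). Psmb1, Psmb3, Psmb5 and Psmb6 were positive, between 0.33 and 0.49, and did not pass.

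Psmb7 had intensities of 10915, 14371, 14018 and 8447 in KO_Aged and 1836, 2117, 2883, 2195 and 2599.9 in WT_Aged, and of 8927, 9074, 2106, 2239.8 and 2252 in KO_Adult and 8968, 8719.9, 9431, 11162 and 9053 in WT_Adult. Psmb7 carries the trypsin-like site of the core. Its log2 differences, the widest of the 39 genes in both ages, were 2.38 ± 0.36 (SE, adjusted p = 0.000142) for KO_Aged minus WT_Aged and -1.35 ± 0.34 (SE, adjusted p = 0.0117) for KO_Adult minus WT_Adult. Across groups, the intensities sorted by the control signal: the 8 arrays with poly-A signal read 1836 to 2883 and the 11 without it read 8447 to 14371, KO_Adult replicates 1 and 2 being with the high ones and replicates 3, 4 and 5 with the low ones. Fitted with the split as a term, they were 0.47 ± 0.26 (adjusted p = 0.269) and -0.20 ± 0.19 (adjusted p = 0.535).

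With that term in the fit, none of the 39 proteasome genes was called between KO_Aged and WT_Aged by limma (2 were higher and none lower at an unadjusted p under 0.05, a threshold that 24.9% of all genes passed), against 5.49% of all genes called, and the median turned to -0.08. Psmd6 gave a difference of 0.40 ± 0.17 (adjusted p = 0.168) and Psmc5 one of 0.35 ± 0.21 (adjusted p = 0.325), while Psmd5 gave 0.25 ± 0.29 (adjusted p = 0.625) and Psmb4 -0.01 ± 0.22 (adjusted p = 0.992). Without the 3′-biased KO_Aged replicates 2 and 3, and with no split term, 4 proteasome genes were called higher and none lower, against 6.7% and 7.54% of all genes: Psmb7 at 2.20 (adjusted p = 0.00573), Psmd5 at 1.15 (adjusted p = 0.026), Psmc5 at 0.58 (adjusted p = 0.0379) and Psmd2 at 0.56 (adjusted p = 0.023).

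In adult muscle, 6 of the 39 proteasome genes were higher in KO_Adult than in WT_Adult and Psmb7 was lower. The risers were the lid subunits Psmd14, Psmd12 and Psmd6, the alpha subunits Psma4 and Psma5, and the beta subunit Psmb3. Among all genes 7.32% were called higher and 9.37% lower, against 15.4% and 2.56% of the proteasome genes. The median log2 difference was 0.22 over the 39 and 0.04 over all genes, and 30 of the 39 were positive, all 7 alpha subunits among them. Under median centring, 9 were called higher and none lower, against 12.3% and 4.95% of all genes, with medians of 0.48 over the 39 and 0.20 over all genes.

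Psmd14 had intensities of 3807, 3930.4, 3552 and 3959 in KO_Aged and 3575, 3369, 3667, 2942 and 3424 in WT_Aged, and of 3280.5, 3469.8, 3741, 4461 and 3452 in KO_Adult and 2351, 2150.2, 1780.5, 2310.4 and 2128 in WT_Adult. Psmd14 is the deubiquitinase of the lid that strips ubiquitin from a substrate as it enters. Its 5 WT_Adult arrays were the lowest of the 19 and overlapped with none of the other 14, which read 2942 and above. The log2 difference was 0.72 ± 0.12 (SE, adjusted p = 0.00091) in adult muscle and 0.21 ± 0.13 (SE, adjusted p = 0.222) in aged muscle.

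Psmd6 and Psmd12 are structural subunits of the same lid. Psmd6 had intensities of 6239.6, 7911, 7568 and 6948 in KO_Aged and 5402, 5915, 5578, 4774 and 6132 in WT_Aged, and of 7130.4, 7464, 6725, 6724 and 7268 in KO_Adult and 5417, 5329, 5539.9, 5624 and 4747 in WT_Adult. All 9 knockout arrays, at 6239.6 to 7911, lay above all 10 wild-type arrays, at 4747 to 6132, whichever side of the split they were on. Psmd6 was picked after its values were seen, and no other member separated in this way. The share of all genes that do so is not given. The log2 difference was 0.32 ± 0.10 (SE, adjusted p = 0.0378) in adult muscle, and the call was lost without KO_Adult replicate 1, 3, 4 or 5 or WT_Adult replicate 1, 2, 3 or 5 (adjusted p from 0.0511 to 0.0822). Psmd12 read 4229, 5076, 5133 and 4712 in KO_Aged and 3999, 4166, 4299, 3568 and 4230.1 in WT_Aged, and 5707, 5633, 4956, 5300.3 and 4774 in KO_Adult and 4223, 4011, 3381, 3917 and 3386 in WT_Adult. Its 5 KO_Adult arrays lay above all 10 wild-type arrays, with a log2 difference of 0.39 ± 0.11 (SE, adjusted p = 0.0176), which was not called without WT_Adult replicate 3 (adjusted p = 0.0537).

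Promoter windows are shown for Psmd14, Psmd12, Psmd6 and Psmd5, cap and assembly genes with a call in the comparisons above. Each is the 250 bases before the RefSeq start site, 5′ to 3′ on the gene's own strand, in build GRCm38.p6, with capitals for matches to the motifs given here. They are the antioxidant response element core TGACNNNGC, read by the proteasome gene regulators Nfe2l1 and Nfe2l2, the NF-Y box CCAAT, and the interferon response element TTTCNNTTTC, each on both strands.
Psmd14 (chr2:61711444-61711693, plus strand): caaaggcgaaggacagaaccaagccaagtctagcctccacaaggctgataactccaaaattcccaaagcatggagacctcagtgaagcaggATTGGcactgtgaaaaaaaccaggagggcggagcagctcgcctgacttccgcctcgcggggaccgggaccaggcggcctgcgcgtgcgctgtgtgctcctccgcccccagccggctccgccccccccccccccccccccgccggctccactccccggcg
Psmd12 (chr11:107479278-107479527, plus strand): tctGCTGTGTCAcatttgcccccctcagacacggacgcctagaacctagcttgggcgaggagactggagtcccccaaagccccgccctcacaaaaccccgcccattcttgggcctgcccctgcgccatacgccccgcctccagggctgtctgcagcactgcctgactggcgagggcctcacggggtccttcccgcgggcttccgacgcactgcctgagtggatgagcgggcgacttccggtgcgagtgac
Psmd6 (chr14:14120946-14121195, minus strand): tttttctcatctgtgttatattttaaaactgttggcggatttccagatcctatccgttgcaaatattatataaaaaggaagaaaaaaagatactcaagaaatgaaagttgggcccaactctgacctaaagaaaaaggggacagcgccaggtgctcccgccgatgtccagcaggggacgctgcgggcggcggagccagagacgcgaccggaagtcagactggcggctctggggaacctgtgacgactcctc
Psmd5 (chr2:34870963-34871212, minus strand): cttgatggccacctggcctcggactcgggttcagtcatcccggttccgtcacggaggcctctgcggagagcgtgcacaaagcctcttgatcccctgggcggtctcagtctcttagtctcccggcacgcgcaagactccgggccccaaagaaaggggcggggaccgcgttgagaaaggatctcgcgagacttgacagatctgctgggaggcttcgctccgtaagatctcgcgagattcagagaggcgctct

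The Psmd14 window holds an NF-Y box 159 bases before the start site and the Psmd12 window an antioxidant response element core 247 bases before it, both on the minus strand of the gene; the Psmd6 and Psmd5 windows hold none of these motifs. RefSeq promoters were matched for 34 of the 41 members, in 36 windows running from 250 bases before to 50 after the start. The antioxidant response element core was in 16.7% of the member windows, against 12.4% of 32851 windows of all genes, and the NF-Y box in 36.1%, against 37.4%. The interferon response element was in 11.1%, against 3.44%, in Psmb3, Psmd4, Psmd9 and Psme1. A match is a run of letters and not a measured site.

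Psma5 had intensities of 2883, 6068, 4063 and 3454 in KO_Aged and 3933, 4565, 4046, 5132 and 4859 in WT_Aged, and of 6103, 5901, 5884, 4612 and 5134 in KO_Adult and 4904, 4299, 2561, 2213 and 2896 in WT_Adult. Psma5, an alpha-ring subunit, had a log2 difference of 0.70 ± 0.20 (SE, adjusted p = 0.0241). WT_Adult replicates 3, 4 and 5 were lower than replicates 1 and 2, and the call was lost without KO_Adult replicate 3 or WT_Adult replicate 3 or 4 (adjusted p from 0.0583 to 0.0724). Another bright Psma5 probe set, at a mean intensity of 2491, gave an adult difference of 0.09, and a dim one, at 40.3, gave 0.83. Psmb3 had intensities of 4302, 8121, 6769.9 and 5000.1 in KO_Aged and 4917, 5111, 4048, 4566 and 5005 in WT_Aged, and of 6022, 5829, 5875, 5184 and 6039 in KO_Adult and 4229.9, 5068, 4038, 3085 and 2787 in WT_Adult. Psmb3, a non-catalytic beta subunit, had every KO_Adult array above every WT_Adult array and a log2 difference of 0.55 ± 0.16 (SE, adjusted p = 0.0231), lost without KO_Adult replicate 3 or 5 or WT_Adult replicate 4 or 5 (adjusted p from 0.0534 to 0.057). The other Psmb3 probe set, at a mean intensity of 2901, gave an adult difference of 0.07. Psma4, another alpha-ring subunit, differed by 0.54 ± 0.13 (SE, adjusted p = 0.00847) and kept its call with any 1 array left out. Leaving out WT_Adult replicate 3 or KO_Adult replicate 3 brought the number of proteasome genes called higher to 3. The genes that did not pass included all 6 ATPases, between -0.13 for Psmc5 and 0.55 for Psmc6 with a class median of 0.31. They also included the other 5 alpha subunits, between 0.14 and 0.33, the other 5 beta subunits, between -0.07 and 0.27, and the other 8 non-ATPase subunits, between -0.22 and 0.15.

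With the split as a term, 3 of the 39 were called higher in KO_Adult than in WT_Adult and none lower, against 6.67% of all genes called in either direction: Psmd5 at 0.91 ± 0.21 (adjusted p = 0.0196), Psmd10 at 0.71 ± 0.20 (adjusted p = 0.0457) and Psmd14 at 0.58 ± 0.15 (adjusted p = 0.0316). Every adult difference with the term is that of KO_Adult replicates 1 and 2 from the 5 WT_Adult arrays, none of which carried poly-A signal. On the arrays without poly-A signal alone, limma called none of the 3 (adjusted p from 0.109 to 0.127). Psmd5 and Psmd10 are assembly chaperones that were not called without the term, at 0.22 ± 0.25 (SE, adjusted p = 0.565) and 0.45 ± 0.17 (SE, adjusted p = 0.0739). The median over the 39 was 0.37 with the term, against 0.05 over all genes, and 32 of them were positive. At an unadjusted p under 0.05, 20 of the 39 were higher, against 13.9% of all genes. Psma4, Psma5, Psmb3, Psmd6 and Psmd12 gave 0.37, 0.77, 0.53, 0.34 and 0.44, with adjusted p from 0.0572 to 0.158.

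**Figure D1:**
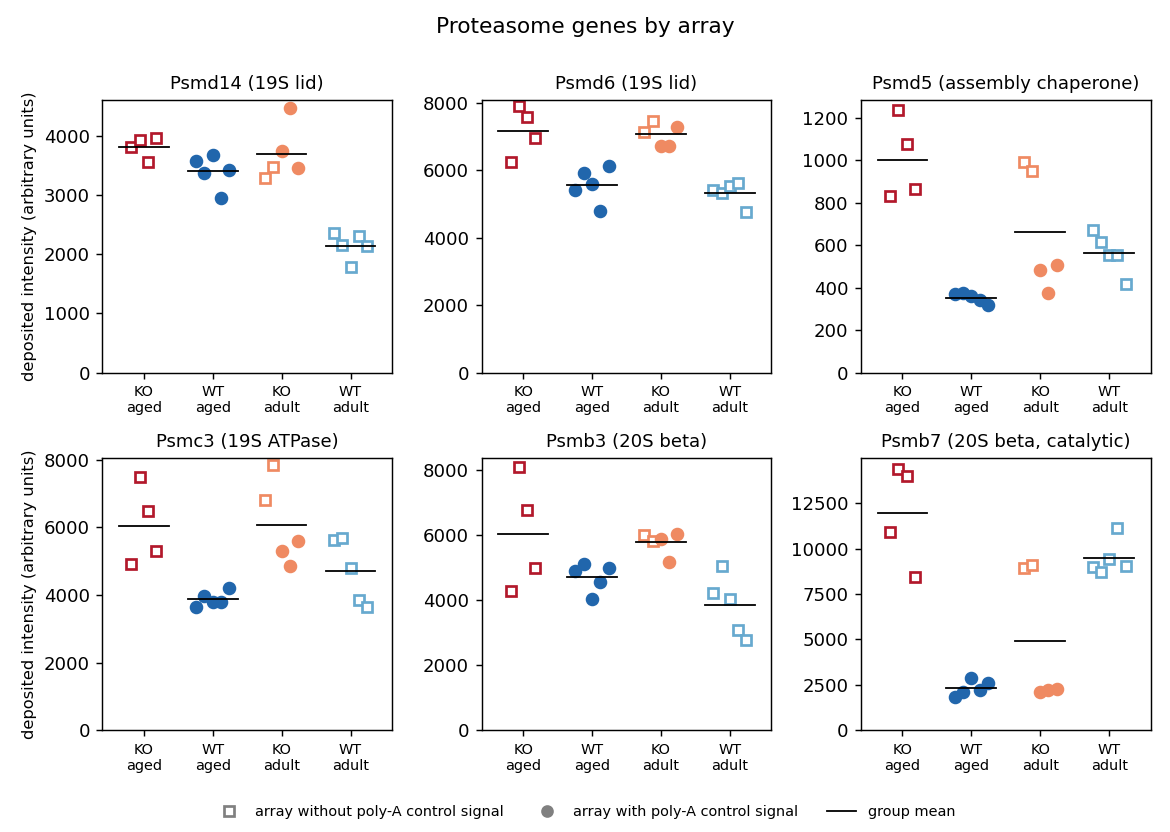
Deposited intensity of 6 proteasome genes on each of the 19 arrays, by group; open squares are arrays without poly-A control signal, filled circles arrays with it, and lines are group means. Psmd14 is low in WT_Adult alone, all 9 knockout arrays exceed all 10 wild-type arrays for Psmd6, which was picked after its values were seen, and Psmb7 separates by control signal.

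**Figure D2:**
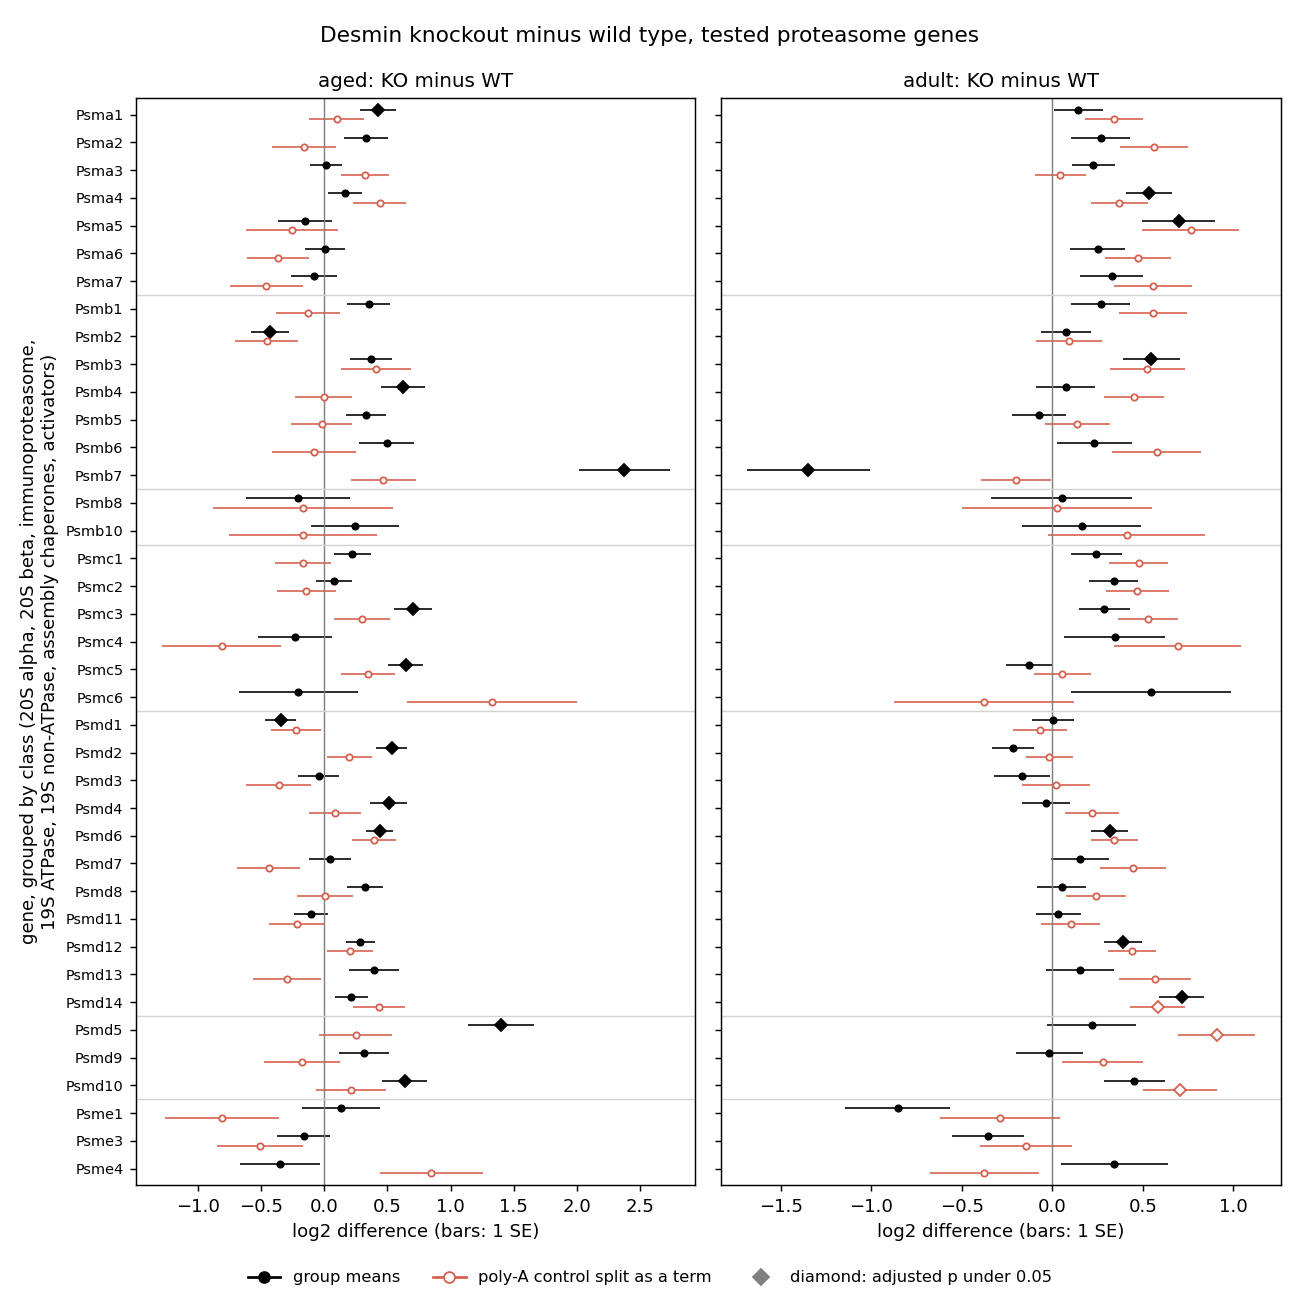
Log2 difference of desmin knockout minus wild type for the 39 tested proteasome genes, in aged muscle (left) and adult muscle (right), with bars of 1 SE. Filled black points come from group means, open red points from the fit with the poly-A control split as a term, and diamonds mark an adjusted p under 0.05: 12 filled diamonds in aged and 7 in adult muscle, and 3 open ones, all in adult muscle.

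The split leaves 2 knockout against wild-type comparisons that share no array, each on 1 side of it. Among arrays without poly-A signal, KO_Adult replicates 1 and 2 were set against the 5 WT_Adult arrays. Among arrays with it, KO_Adult replicates 3, 4 and 5 were set against the 5 WT_Aged arrays, where age differs too. Of the 39 proteasome genes, 25 (64.1%) were positive in both, 4 negative in both and 10 opposite, while 33.0% of all 7436 genes were positive in both.

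Without poly-A signal, none of the 39 was called by limma (11 higher and none lower at an unadjusted p under 0.05, against 9.51% of all genes higher at that threshold), while 1.43% of all genes were called. With it, 3 were called higher and none lower, against 16.4% of all genes: the alpha subunit Psma4 at 0.54 (adjusted p = 0.0145) and the ATPases Psmc3 at 0.43 (adjusted p = 0.0279) and Psmc1 at 0.37 (adjusted p = 0.0418). Psmd5 gave 0.91 without poly-A signal and 0.35 with it. KO_Adult replicates 1 and 2 read 993 and 948 for this chaperone, above the WT_Adult range of 416 to 669.8; replicates 3, 4 and 5 read 482, 373 and 507, against 319.8 to 377 in WT_Aged, where replicate 4 lay within the WT_Aged range. Psmd10 gave 0.71 and 0.50, and Psmd12 0.44 and 0.29. For each gene the difference without poly-A signal equals the adult difference with the split as a term, so these are not separate results.

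Another comparison within 1 side of the split set the 4 KO_Aged arrays against the 5 WT_Adult arrays, all without poly-A signal and again of different ages, and it shares WT_Adult with the comparison above. It called 5 proteasome genes higher and 1 lower, against 21.4% of all genes in either direction. The risers were Psmd14 at 0.84 (adjusted p = 0.003), Psmd5 at 0.81, Psmb3 at 0.67, Psma1 at 0.54 and Psmd6 at 0.46, and the lid subunit Psmd3 fell, at -0.56 (adjusted p = 0.0488). Within KO_Adult itself, 31 of the 39 proteasome genes were lower on the 3 arrays with poly-A signal than on the 2 without it, against 4304 of all 7436 genes. The median log2 difference was -0.35 over the 39, against -0.13 over all genes.

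**Figure D3:**
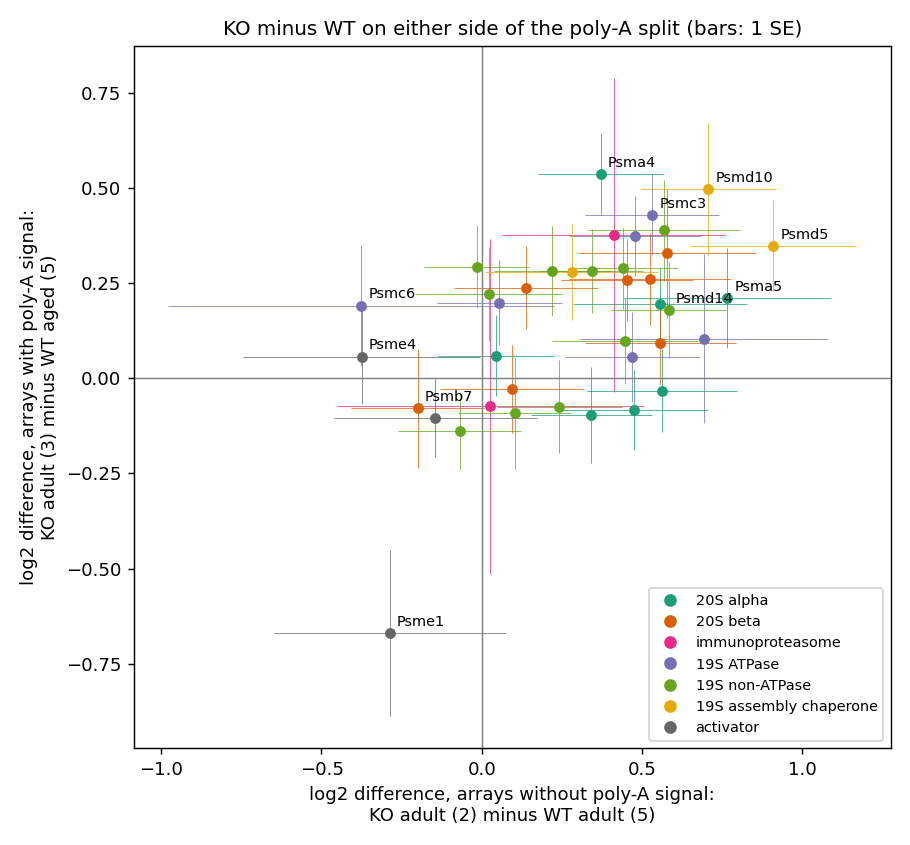
Log2 difference of KO_Adult minus WT_Adult on arrays without poly-A control signal (x axis) against KO_Adult minus WT_Aged on arrays with it (y axis), for the 39 tested proteasome genes, coloured by class, with bars of 1 SE. Of the points, 25 lie in the upper right area, among them Psmd5, Psmd10, Psma4 and Psmc3, and Psme1 is lowest on the y axis.

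Psmd6 has a further probe set on the array, described here after its values were seen. It read 3983, 5597, 4678 and 4668 in KO_Aged, against 304, 429, 260.1, 332 and 443 in WT_Aged, and 418, 5476, 4476, 5780.2 and 5538 in KO_Adult, against 245, 335, 118, 17.5 and 161 in WT_Adult. KO_Adult replicate 1 lay within the wild-type range and the other 8 knockout arrays were at 3983 to 5780, against 17.5 to 443 on the 10 wild-type arrays. In a fit that treated each of 12228 probe sets separately, the log2 difference was 3.76 ± 0.73 (SE, adjusted p = 0.00125) in aged and 4.71 ± 0.69 (SE, adjusted p = 0.000362) in adult muscle by limma, and 5.55 (adjusted p = 0.0177) and 3.64 (adjusted p = 0.0257) with the split as a term. The probe set used above differed by 0.44 (adjusted p = 0.00757) in aged and 0.32 (adjusted p = 0.0491) in adult muscle in the same fit, so the 2 probe sets of this gene disagree in size and share a direction. KO_Adult replicate 1 read 7130.4 on that one, within the knockout range. The difference between the 2 probe sets was not tested. Further probe sets of other members did not all share a direction with the one used. For KO_Aged minus WT_Aged, Psmb4 gave -0.18 on its other probe set, against 0.62, and Psmc4 gave 0.56, against -0.23. Psmd13, at 0.36 against 0.39, and Psmd4, at 0.24 on the brighter of its others against 0.51, kept theirs.

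**Figure D4:**
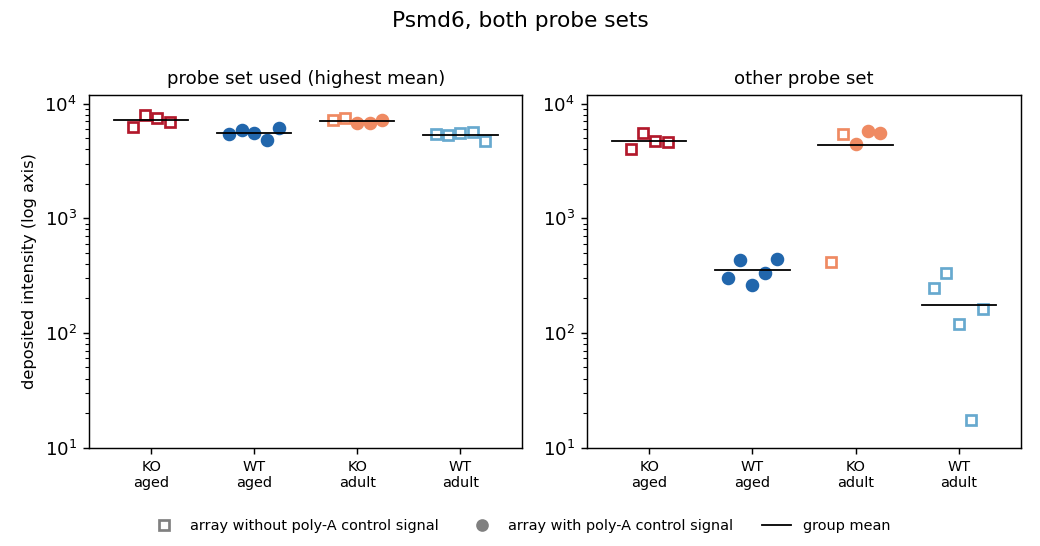
Deposited intensity, on a log axis, of the Psmd6 probe set with the highest mean (left) and of the other Psmd6 probe set (right) on each of the 19 arrays, by group; symbols as in the plot of 6 genes by array. On the right, 8 knockout arrays lie between 3983 and 5780, and KO_Adult replicate 1 lies at 418, among the wild-type arrays.

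Between ages in wild type, 2 proteasome genes were higher and 9 lower in WT_Aged than in WT_Adult. Psmd14 and the nuclear activator Psme4 rose. Psmb7, the cap subunits Psmd2, Psmd3, Psmd4 and Psmd13, the catalytic subunit Psmb5, the ATPase Psmc5, Psmb4 and the chaperone Psmd9 fell. Among all genes 18.1% were called higher and 20.8% lower, against 5.13% and 23.1% of the proteasome genes, and all 5 WT_Aged arrays carried poly-A signal while no WT_Adult array did. Psmd14 differed by 0.62 ± 0.12 (SE, adjusted p = 0.00111), Psmb7 by -2.03 ± 0.34 (SE, adjusted p = 0.000352) and Psmd2 by -0.65 ± 0.12 (SE, adjusted p = 0.000586). Psmd2 had intensities of 5169.8, 5483, 5599 and 5069.7 in KO_Aged and 3635, 4119, 3813, 3672 and 4069 in WT_Aged, and of 6647, 6073, 5053, 4321 and 4923 in KO_Adult and 6355, 5961, 6652, 5434 and 5512 in WT_Adult. For this scaffold the 8 arrays with poly-A signal read 3635 to 5053 and the 11 without it 5069.7 to 6652, ranges that do not overlap. Median centring gave 4 proteasome genes higher and 2 lower, against 21.8% and 13.7% of all genes, and the median over the 39 was 0.18, against -0.02 with quantile normalization.

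Psmd3 had intensities of 1423, 831, 1236 and 1472 in KO_Aged and 1304, 1219, 1221, 1252 and 1235 in WT_Aged, and of 1872, 1653, 1442, 1236 and 1719 in KO_Adult and 2044, 1568, 1915, 1477 and 1713 in WT_Adult. Psmd3, a lid subunit, had a log2 difference of -0.51 ± 0.15 (SE, adjusted p = 0.0141), and its WT_Aged range ran from 1219 to 1304, against 1477 to 2044 in WT_Adult. The ubiquitin receptor Psmd4 differed by -0.49 ± 0.13 (SE, adjusted p = 0.0097) and the ATPase Psmc5 by -0.45 ± 0.13 (SE, adjusted p = 0.0133); these calls and that of Psmd3 held with any 1 array left out. The other falls were less steady. The lid subunit Psmd13 differed by -0.51 ± 0.19 (SE, adjusted p = 0.0388), lost without WT_Aged replicate 1, 2, 3, 4 or 5 or WT_Adult replicate 1, 2 or 3 (adjusted p from 0.0522 to 0.105). Psmb5, the chymotrypsin-like subunit, differed by -0.45 ± 0.15 (SE, adjusted p = 0.0241), lost without WT_Aged replicate 2 or 5 or WT_Adult replicate 1 or 3 (adjusted p from 0.0528 to 0.0715). Psmb4, a non-catalytic beta subunit, differed by -0.43 ± 0.16 (SE, adjusted p = 0.0416), lost without WT_Aged replicate 1, 2, 3, 4 or 5 or WT_Adult replicate 1, 2 or 3 (adjusted p from 0.0568 to 0.108). The other Psmb4 probe set gave 0.92. The chaperone Psmd9 differed by -0.49 ± 0.19 (SE, adjusted p = 0.0439), lost without KO_Aged replicate 3, WT_Aged replicate 1, 2, 3, 4 or 5, KO_Adult replicate 5 or WT_Adult replicate 1, 2 or 3 (adjusted p from 0.0507 to 0.118). Leaving out WT_Adult replicate 1 or 3, or WT_Aged replicate 2 or 5, brought the number of genes called lower to 5, and without WT_Adult replicate 5 the number called higher was 4. No alpha subunit was called, and the 28 genes that did not pass lay between -0.59 for Psmd5 and 0.97 for Psmc6. Under the split term, none of the 39 was called by limma (2 higher and none lower at an unadjusted p under 0.05, which 14.2% of all genes passed), against 0.0941% of all genes called.

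Between ages in knockout, Psmb7 alone was called, at 1.69 ± 0.36 (SE, adjusted p = 0.0103) for KO_Aged minus KO_Adult, against 3.68% of all genes called higher and 3.75% lower. The median over the 39 was -0.04. Psmb7 was not called once the split was a term, at 0.55 ± 0.20 (adjusted p = 0.0834), and Psmd13 was, at -0.69 ± 0.21 (adjusted p = 0.045), against 9.98% of all genes. On the arrays without poly-A signal alone, the 4 of KO_Aged and 2 of KO_Adult, none of the 39 was called by limma (1 higher and 6 lower at an unadjusted p under 0.05, which 21.7% of all genes passed), against 0.0672% of all genes called. The differences on those arrays equal those with the split as a term, and only the estimate of spread differs.

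The knockout difference itself changed with age for 6 genes by the interaction, taken as (KO_Aged minus WT_Aged) minus (KO_Adult minus WT_Adult). It was positive for Psmb7 at 3.73 ± 0.50 (SE, adjusted p = 0.00011), Psmd5 at 1.18 ± 0.36 (SE, adjusted p = 0.0231), Psmc5 at 0.77 ± 0.19 (SE, adjusted p = 0.00757) and Psmd2 at 0.75 ± 0.17 (SE, adjusted p = 0.00422), and negative for Psma5 at -0.85 ± 0.29 (SE, adjusted p = 0.0416) and Psmd14 at -0.50 ± 0.18 (SE, adjusted p = 0.0472). On the other bright Psma5 probe set the interaction was 0.03, and on the dim one -1.83. Among all genes 14.3% were positive and 10.8% negative, against 10.3% and 5.13% of the proteasome genes. Median centring gave 1 positive and 6 negative calls, against 8.41% and 14.6% of all genes, with medians of -0.35 over the 39 and -0.14 over all genes. Of the 19 fits with 1 array left out, 13 did not call Psma5 (adjusted p up to 0.0837) and 13 did not call Psmd14 (up to 0.0953), and Psmd5 was not called without KO_Aged replicate 2 (adjusted p = 0.0511). None was called by limma with the split as a term (none higher and 3 lower at an unadjusted p under 0.05, which 16.5% of all genes passed), against 0.0269% of all genes called, and Psmd5 turned to -0.66 ± 0.44 (adjusted p = 0.43).

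The other catalytic subunits of the standard core were not called between knockout and wild type. Psmb5 had intensities of 3983, 4919.9, 5412 and 3526 in KO_Aged and 3658, 3470.3, 3706, 3801 and 3406 in WT_Aged, and of 5493, 6265, 4408, 3979 and 4503 in KO_Adult and 5593, 5142, 5900.4, 4198 and 3489 in WT_Adult. Psmb5, which carries the chymotrypsin-like site, differed by 0.33 ± 0.16 (SE, adjusted p = 0.123) in aged and -0.07 ± 0.15 (SE, adjusted p = 0.775) in adult muscle. Psmb6 had intensities of 3238, 6549.7, 5527 and 3846 in KO_Aged and 3926, 3409.8, 3793, 2643 and 3176 in WT_Aged, and of 6102, 7489.7, 3531, 4445 and 4844 in KO_Adult and 5187, 5082, 4237, 3491 and 2996 in WT_Adult. Psmb6, the caspase-like subunit, differed by 0.49 ± 0.22 (SE, adjusted p = 0.0983) and 0.23 ± 0.21 (SE, adjusted p = 0.458). For both genes KO_Adult replicates 1 and 2 stood above replicates 3, 4 and 5, as they did for Psmb7.

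Of the immunoproteasome subunits, induced by interferon and abundant in leukocytes, Psmb8 and Psmb10 did not pass the test in any of the 5 comparisons, and Psmb9 was not tested. Psmb8 had intensities of 189, 232, 151 and 116 in KO_Aged and 199, 119, 218, 235 and 169.7 in WT_Aged, and of 114, 219, 136, 78.9 and 441 in KO_Adult and 212, 268, 221, 173 and 97.9 in WT_Adult. Psmb8, which replaces Psmb5, differed by -0.21 ± 0.41 (SE, adjusted p = 0.728) in aged and 0.05 ± 0.39 (SE, adjusted p = 0.941) in adult muscle, and KO_Adult replicate 5 was the highest of all arrays. Psmb10 had intensities of 323, 476, 477 and 359.9 in KO_Aged and 331, 258, 347, 413 and 275 in WT_Aged, and of 434, 649, 310.2, 213 and 1049.7 in KO_Adult and 541, 611, 409, 419.6 and 299 in WT_Adult. Psmb10, which replaces Psmb7, differed by 0.24 ± 0.35 (SE, adjusted p = 0.627) and 0.16 ± 0.33 (SE, adjusted p = 0.77), again with its highest value on KO_Adult replicate 5. Psmb9 had intensities of 51.8, 146, 95.3 and 97.7 in KO_Aged and 80.3, 29.4, 43.8, 56.4 and 7.00 in WT_Aged, and of 47.7, 117, 51.4, 13.6 and 245 in KO_Adult and 121, 170.4, 128, 120.3 and 92.0 in WT_Adult. Psmb9, which replaces Psmb6, was too dim to be tested, and it too was highest on that array. Its untested log2 difference was 1.14 in aged muscle, -0.63 in adult muscle and -1.44 between ages in wild type.

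Leukocyte markers were measured beside these genes. Of the marker lists, all 6 general leukocyte, 9 of 10 macrophage, 5 of 6 neutrophil, all 4 T cell, 3 of 4 B cell, all 8 endothelial and all 5 fibroblast genes were on the array. Summed over 6 general leukocyte markers, intensity was 2279 to 4106 in KO_Aged and 1055 to 4291 in WT_Aged, and 1040.2 to 2217 in KO_Adult and 778 to 1995 in WT_Adult. Over 9 macrophage markers it was 7182 to 13532 in KO_Aged and 3957 to 14235 in WT_Aged, and 4392 to 7640.3 in KO_Adult and 3593 to 6399 in WT_Adult. Over 5 neutrophil markers it was 6885 to 12662 in KO_Aged and 2404 to 13044 in WT_Aged, and 432 to 4383 in KO_Adult and 463 to 1663 in WT_Adult. The T cell and B cell sums stayed at 129.8 or below on every array, and no T or B cell marker passed the dim filter. No leukocyte, macrophage or neutrophil marker was called in aged muscle, and 1 leukocyte and 1 macrophage marker were called higher in adult muscle. The shares of all tested genes called higher and lower were 16.9% and 12.5% in aged muscle, and 7.32% and 9.37% in adult muscle. Of 8 endothelial markers, 4 were lower and 1 higher in aged knockout and 7 lower in adult knockout, with sums of 2701 to 3601 in KO_Aged and 3900.3 to 4770.4 in WT_Aged, and 2661 to 3021 in KO_Adult and 5878 to 7277 in WT_Adult. Fibroblast markers, of which 2 were higher in aged knockout and 1 lower in adult knockout, summed to 18509 to 25968 in KO_Aged and 8859.6 to 15022 in WT_Aged, and 11439 to 25121 in KO_Adult and 15352 to 17877 in WT_Adult. The part of these cells in the proteasome gene differences was not tested.

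Of the activators, which open the core without ATP, none was called between knockout and wild type on the probe set used for each. Psme1 had intensities of 886, 1804, 1489 and 1016 in KO_Aged and 1126, 947, 1218, 1311 and 982 in WT_Aged, and of 1310.2, 1266, 611, 499.6 and 1032 in KO_Adult and 2184, 2185, 1956, 1126 and 1064 in WT_Adult. Psme1, a subunit of the interferon-induced 11S ring, differed by 0.13 ± 0.31 (SE, adjusted p = 0.77) in aged and -0.85 ± 0.29 (SE, adjusted p = 0.0511) in adult muscle. Without the 3′-biased KO_Aged arrays in the fit, the adult difference was called (adjusted p = 0.0435), and on arrays with poly-A signal KO_Adult minus WT_Aged was -0.67 (adjusted p = 0.0643). With the split as a term, the adult difference was -0.29 (adjusted p = 0.622). That is the difference of KO_Adult replicates 1 and 2 from WT_Adult. Arrays without poly-A signal alone therefore gave the same -0.29 (adjusted p = 0.698), and only the estimate of spread differs. Psme3 had intensities of 560.5, 883, 658 and 362 in KO_Aged and 692, 632, 604, 593 and 614 in WT_Aged, and of 644, 757, 598, 533 and 598 in KO_Adult and 806, 767, 713, 815 and 1026 in WT_Adult. Psme3, which forms a nuclear ring of the same family, differed by -0.16 ± 0.21 (SE, adjusted p = 0.584) and -0.35 ± 0.20 (SE, adjusted p = 0.23). Another Psme3 probe set, at a mean intensity of 287, differed by 1.64 in aged and -2.23 in adult muscle. It read 50.0 to 118 on arrays with poly-A signal and 132 to 888 on arrays without it. A dim one, at a mean of 22.5, differed by -0.86 and 0.14. Psme4 had intensities of 3936, 3886, 3582 and 4322 in KO_Aged and 4153, 5760.2, 5379, 4888 and 5722 in WT_Aged, and of 2637, 2049, 5485, 5538 and 5068 in KO_Adult and 3312, 2247, 1577, 3814 and 4765 in WT_Adult. Psme4 (PA200), a nuclear activator linked to histone degradation, differed by -0.35 ± 0.31 (SE, adjusted p = 0.421) and 0.34 ± 0.30 (SE, adjusted p = 0.442), and between ages in wild type by 0.77 ± 0.30 (SE, adjusted p = 0.0483), which turned to -0.43 with the split as a term (adjusted p = 0.62). Other Psme4 probe sets gave -0.84 and 0.42 between ages in wild type. WT_Adult replicates 1, 2 and 3 and KO_Adult replicates 1 and 2 were the 5 lowest arrays on the probe set used, and the age call was lost without KO_Aged replicate 1, 2, 3 or 4, WT_Aged replicate 1, 2, 3, 4 or 5 or WT_Adult replicate 1, 2 or 3 (adjusted p from 0.0535 to 0.151). The ATPase Psmc6 had the same low arrays, at 867 to 1159, against 1439 to 3723 on the other 14, and was called in none of the comparisons.

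**Figure D5:**
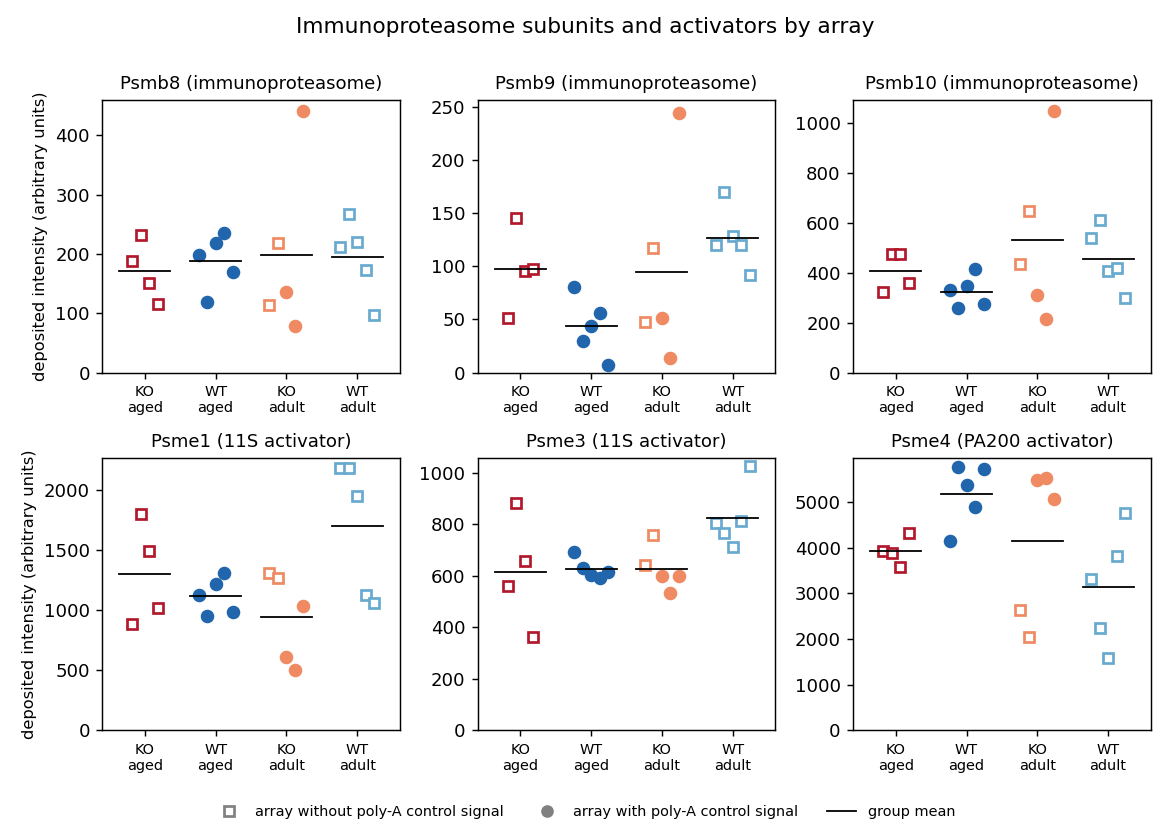
Deposited intensity of the 3 immunoproteasome subunits and 3 activators on each of the 19 arrays, by group; symbols as in the plot of 6 genes by array. KO_Adult replicate 5 is highest for Psmb8, Psmb9 and Psmb10, and WT_Adult and KO_Adult hold the 5 lowest arrays for Psme4.

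The members did not vary together as 1 block. Over the 19 arrays, after group means were removed, each gene was correlated with the mean log2 level of the 14 standard core subunits, a description in which the arrays share the control signal split and no p is given. Among the cap ATPases r ran from -0.87 for Psmc6 to 0.94 for Psmc3, and among the alpha subunits, themselves part of that mean, from -0.79 for Psma3 to 0.93 for Psma2. The 3 assembly chaperones were at 0.69 (Psmd10), 0.79 (Psmd9) and 0.91 (Psmd5), and Psme1 was at 0.89 while Psme4 was at -0.66. A few arrays stood apart within their groups. For Psmc6, WT_Adult replicates 1, 2 and 3 had log2 levels of 9.77 to 9.86, against 11.6 and 11.8 in replicates 4 and 5. The 3′-biased KO_Aged replicates 2 and 3 had 10.5 and 11.1, against 11.8 and 12.0 in replicates 1 and 4. How far such arrays set the r values was not tested. The genes outside the set with the highest r were Lsm10, Cdc26, Mmachc, Trappc1 and Mrpl2, at 0.95 to 0.96, against a median of 0.25 over 7397 tested genes outside the set.

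Other genes of the pathway were read as lists. For all genes tested, 16.9% were called higher and 12.5% lower in aged knockout, and 7.32% and 9.37% in adult knockout. Each list below is to be read beside these shares. Of 6 tested genes in the list of core assembly chaperones with the inhibitor Psmf1, 3 were higher and none lower in KO_Aged than in WT_Aged, and 1 higher and 1 lower in KO_Adult than in WT_Adult, with medians of 0.43 and 0.19. Pomp, the chaperone that matures the beta ring, was higher in both ages, with 3771 to 5335 in KO_Aged, against 2624 to 3162 in WT_Aged, and 3823 to 5074 in KO_Adult, against 2479 to 3025 in WT_Adult. All 9 knockout arrays lay above all 10 wild-type arrays, and the share of all genes that do so is not given. Its log2 differences were 0.64 (adjusted p = 0.00139) and 0.61 (adjusted p = 0.00257), and 0.68 (adjusted p = 0.0668) and 0.58 (adjusted p = 0.0366) with the split as a term. Psmg1 and Psmg3, which build the alpha ring, rose in aged muscle, by 0.79 (adjusted p = 0.0385) and 0.60 (adjusted p = 0.0292). Psmf1, the inhibitor, was -0.76 (adjusted p = 0.0435) in adult muscle. In aged muscle it was not called, and its ranges overlapped, at 238 to 295 in KO_Aged and 199 to 304 in WT_Aged. With the split as a term, the aged difference was -1.29 (adjusted p = 0.0117). That value takes in the difference between KO_Adult arrays with and without poly-A signal.

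Of 13 tested proteasome-bound factors and ubiquitin shuttles, 2 were higher and 2 lower in aged knockout, and 1 higher and 1 lower in adult knockout, with medians of -0.19 and 0.10. The shares of all genes were 16.9% and 12.5% in aged and 7.32% and 9.37% in adult knockout. In aged muscle the deubiquitinase Usp14 was 0.84 (adjusted p = 0.00231), the ligase Ube3c 0.68 (adjusted p = 0.0124), Zfand5 -0.74 (adjusted p = 0.0275) and Ubqln1 -0.39 (adjusted p = 0.0446). In adult muscle the shuttle Ubqln2 was 0.56 (adjusted p = 0.0398) and the shuttle Ubqln4 -0.62 (adjusted p = 0.031), with Ubqln4 at -0.90 (adjusted p = 0.0284) when the split was a term. Of 6 tested transcription factors and processing enzymes of proteasome genes, Stat3 at -1.04 (adjusted p = 0.044) and Nfe2l2 at -0.41 (adjusted p = 0.0468) fell in aged muscle, Nfe2l1 did not pass at -0.67 (adjusted p = 0.119), and Foxo3 rose in adult muscle, at 348 to 1191 in KO_Adult, against 183 to 663 in WT_Adult (adjusted p = 0.0474). None of these 6 was called under the split term.

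Of 10 tested muscle ubiquitin ligases, 1 was higher and 2 lower in aged knockout and 1 lower in adult knockout, with medians of -0.30 and -0.10. For these and the next 2 lists, the shares of all genes were again 16.9% and 12.5% in aged and 7.32% and 9.37% in adult knockout. Fbxo32 (atrogin-1), the ligase known for muscle wasting, fell in aged muscle at -1.66 (adjusted p = 0.0122), as did Nedd4l at -0.59 (adjusted p = 0.0383), and the microtubule-associated Trim54 rose at 0.47 (adjusted p = 0.0195). Stub1, a chaperone-linked ligase, fell in adult muscle at -0.46 (adjusted p = 0.0385). Of 9 tested genes of the p97 unfoldase system, Ubxn1 rose in aged muscle at 0.73 (adjusted p = 0.00174) and Nploc4 fell in adult muscle at -0.68 (adjusted p = 0.0256). Of 14 tested antigen-processing and interferon genes, Tapbp rose at 0.89 (adjusted p = 0.0147) and the peptide transporter Tap2 fell at -1.02 (adjusted p = 0.00137) in aged muscle, and Cd74 fell at -1.37 (adjusted p = 0.0306) in adult muscle. Under the split term none of the ligases or antigen-processing genes was called in either age. Nsfl1c, a p97 cofactor, was called in adult muscle under that term, at 0.61 (adjusted p = 0.0363), a difference of KO_Adult replicates 1 and 2 from WT_Adult. Over all KO_Adult arrays Nsfl1c read 1540 to 3386 with a median of 1834.5, against 1762 to 2449 with a median of 2024 in WT_Adult.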

How the data were processed

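Biotinylated RNA (2 to 5 µg of total RNA per labelling, per the labels' protocols) was hybridised to 1-colour Affymetrix mouse arrays, and the deposited values are MAS5 signal intensities on a linear scale, 1 per probe set, per the submitters' processing notes; the sources used here do not give the MAS5 version. Of 22690 probe sets, 64 controls were left out and 20393 had 1 gene symbol. Values were taken as log2(intensity + 4.76), the 10th percentile of all values, and quantile normalized because array medians spanned 0.63. Each gene was read from its highest-mean probe set, and the brightest 60% of genes (7436, ranked on the mean of the 19 arrays) were tested with limma 3.58.1 (R 4.3.3, Python 3.11.15, pandas 2.3.3, numpy 2.4.6, matplotlib 3.10.9) in 1 fit with a mean per group. Benjamini-Hochberg adjustment ran over all tested genes, and a call means an adjusted p under 0.05. Fold differences are on the log2(intensity + 4.76) scale, which understates changes of dim genes. The number of arrays limits the precision. The members, gene lists and tests were chosen with earlier results of these data known; the comparisons within 1 side of the poly-A control split and the further Psmd6 probe set were added after seeing the data. Genes given with the value of every array were the catalytic, immunoproteasome and activator genes and the 3 largest called rises and falls of each pairwise comparison, with Psmd6 and Psmd12 added after their values were seen. Arrays count as having poly-A signal above a dap intensity of 200, and as 3′-biased above a Gapdh ratio of 3. The fit was tested on simulated data. Alternatives covered the pseudocount, normalization, filter, probe set rule, array weights, the split, and each array left out. A further promoter motif that was searched is not reported here.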

Additional observations from a re-analysis of the deposited data

Results flagged for a closer look

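The knockout difference differed between ages, by the interaction in limma, for 6 proteasome genes: Psmb7 at 3.73, Psmd5 at 1.18, Psmc5 at 0.77 and Psmd2 at 0.75 were more positive in aged muscle, and Psma5 at -0.85 and Psmd14 at -0.50 more positive in adult muscle. The 4 positive and 2 negative calls are 10.3% and 5.13% of the 39 genes, below the 14.3% and 10.8% of all genes tested. None of the 6 was called with the poly-A control split as a term. The other bright probe set of Psma5 gave an interaction of 0.03, and a dim one -1.83.

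In 4 cases 1 array stood apart from the rest of its group, with a gap to its nearest neighbour that took up most of the group's range on the normalized log2 scale. WT_Adult replicate 3 was lowest for Psma1, with a gap of 0.712 of the range, and WT_Aged replicate 4 was lowest for Psmd12, with 0.736. KO_Aged replicate 2, 1 of the 3′-biased arrays, was lowest for Psmd2, with 0.842, while its unnormalized intensity was within the group. KO_Adult replicate 1 was lowest on the further Psmd6 probe set, with 0.901. Chance alone marks about 5% of groups of this kind, and each of the 39 tested members has 4 groups open to such a mark.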

How the results depend on the processing

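No paired analysis was possible because the labels number no replicates: what the title codes mark is not stated, several share a stem within a group, and only 1 stem occurs in more than 1 group (KO_Aged and WT_Aged). With 1 array left out at a time, the count of proteasome genes called higher was 9 to 13 and lower 0 to 2 for KO_Aged minus WT_Aged, 3 to 6 and 1 to 2 for KO_Adult minus WT_Adult, 1 to 4 and 5 to 10 for WT_Aged minus WT_Adult, 1 and 0 throughout for KO_Aged minus KO_Adult, and 3 to 6 and 0 to 2 for the interaction. Other settings moved these counts as follows, higher before lower, naming the counts that moved by over 1.5 times. For KO_Aged minus WT_Aged (10 and 2), higher became 4 with median centring, 4 without the 3′-biased arrays, and 0 with the split as a term, whether or not the 3′-biased arrays were in; lower became 0 with median centring, with no filter, with the split, without the 3′-biased arrays and with only the groups compared, and 1 with no normalization, with the mean of the probe sets and with the split without the 3′-biased arrays. For KO_Adult minus WT_Adult (6 and 1), higher became 2 with no filter, 3 with the split with or without the 3′-biased arrays, 0 on arrays without poly-A signal and 1 with only the groups compared; lower became 0 with median centring, with the split in either form, on arrays without poly-A signal and with only the groups compared, 2 with no normalization, with pseudocount 32, in the upper 40% of genes and without the 3′-biased arrays, and 5 with array weights. For WT_Aged minus WT_Adult (2 and 9), higher became 4 with median centring and with array weights, 1 with no filter and without the 3′-biased arrays, and 0 with the split in either form; lower became 2 with median centring, 0 with the split in either form and 19 with array weights. For KO_Aged minus KO_Adult (1 and 0), higher became 0 with the split in either form, on arrays without poly-A signal, without the 3′-biased arrays and with only the groups compared, and 3 with array weights; lower became 1 with the split in either form and with array weights. For the interaction (4 and 2), higher became 1 with median centring, 0 with the split in either form and 12 with array weights; lower became 6 with median centring and with array weights, 0 with no filter and with the split in either form, and 1 without the 3′-biased arrays.

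With the split as a term, 15 of the 39 genes turned direction for KO_Aged minus WT_Aged, 8 for KO_Adult minus WT_Adult, 17 for WT_Aged minus WT_Adult, 8 for KO_Aged minus KO_Adult and 21 for the interaction, and of these 1, 0, 4, 0 and 1 had been called. The called differences that turned were as follows. With the mean of a gene's probe sets, Psma1 was -0.67 for KO_Aged minus WT_Aged, and Psmb4 was 0.24 for WT_Aged minus WT_Adult. The Psma1 interaction, which had not been called, also turned there, to -1.57. With the split as a term, Psmb4 was -0.0053 for KO_Aged minus WT_Aged, and for WT_Aged minus WT_Adult Psmb4 was 0.20, Psmd13 0.18, Psmd9 0.0004 and Psme4 -0.43; Psmd5 was -0.66 for the interaction. With the split and without the 3′-biased arrays, Psmb4 was -0.13 and Psmd5 -0.0021 for KO_Aged minus WT_Aged, the same 4 wild-type values were 0.20, 0.18, 0.0004 and -0.43, and Psmd5 was -0.91 for the interaction. The cause was not tested.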
